A study of Mus musculus with 19 samples.

Results

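The 36 genes described here drive DNA replication and mitosis and serve as markers of dividing cells. They were chosen by gene symbol and not by a rule on their values, but with earlier results of these data known. In the deposited count tables, 36 of 36 were found among the 24348 genes listed and passed the filter on low counts that left 16015 genes. They were read in 19 RNA sequencing libraries of whole perigonadal fat, the visceral depot beside the reproductive tract, from mice of the C57BL/6 strain that had gained weight on 1 of 2 foods. The high-fat diet groups (HFD, labelled 60%) were sampled at peak weight while fed (n = 4, titled ALO) or after 24 h without food (n = 4, ALOneg). The Ensure groups, on a liquid nutrition product, were sampled in the same states (fed n = 6, OIO, and fasted n = 5, OIOneg). All groups share the strain and the tissue, the labels name no further allele or agent, and libraries are called by group and title number. Sex, age and whether each library is a separate animal are not given in the labels used here, so the p-values measure only how far these libraries spread, which may be technical.

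As background, a cell commits to division when cyclin E and its kinase partner release E2F factors, which switch on the genes of S phase. The MCM complex then unwinds DNA, the clamp made by Pcna holds the polymerases, and Tyms, Rrm2 and Tk1 supply nucleotides. Later, Foxm1 and the MuvB complex switch on the genes of G2 and mitosis, which build the spindle and separate the chromosomes. Mature fat cells do not divide, and in obese fat dividing macrophages, stromal progenitors and endothelial cells are known sources of these transcripts. Whole tissue was measured, so fewer dividing cells and less RNA per dividing cell cannot be told apart in any value below.

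Libraries held 12.8 to 22.6 M counts in genes (median 20.2 M). Levels are CPM, counts scaled to a common library total with TMM, and are not divided by transcript length, so they are compared between libraries and not between genes. A floor of 3 counts, which covers counting error only, corresponds to 0.124 to 0.210 CPM, and the 36 genes averaged 1.97 to 44.1 CPM, above that floor. Adipoq, a defining gene of fat cells, stood at 1112 to 4138 CPM in the 19 libraries. The 16 macrophage markers were read in every library, and their sum ran from 1428 CPM in Ensure fasted 5 to 7098 CPM in HFD fasted 28. These libraries also had the largest shares of reads not aligned uniquely, 26.0% and 27.7% against a median of 21.9%. The part of this in the values below was not tested. Sums of reproductive tract markers (epithelium, epididymis secretions, spermatids and meiotic cells) ran from 71.6 to 10780 CPM, and Ensure fasted 5 and Ensure fasted 2 (1661 CPM) stood apart. In Ensure fasted 5, smooth muscle markers also summed to 7428 CPM, against a median of 435 CPM. Sequencing lane was uneven over the groups: the 8 HFD libraries shared lane 7, while 4 of 5 Ensure fasted libraries were in lane 5 and 4 of 6 Ensure fed libraries in lane 6.

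The stretch before the transcription start is shown for 6 of the genes because it holds the short words through which cell cycle genes are known to be timed. The sequences are the 120 bases before the start from RefSeq (GRCm38.p6), read in the direction of the gene, with words found by search in capitals. The words were CCAAT, read by NF-Y, and TTTGAA or TTCGAA (called CHR here), read by MuvB complexes, each on either strand, so that ATTGG and TTCAAA are capitalised too. The first 4 sequences belong to genes of G2 and mitosis, and Ccne1 and Tyms are shown because they were the 2 members that passed the test after fasting with Ensure.
Cdk1, chr10:69352913-69353032, minus strand: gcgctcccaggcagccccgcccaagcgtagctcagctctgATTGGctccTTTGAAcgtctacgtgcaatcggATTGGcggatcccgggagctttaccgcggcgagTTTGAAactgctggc
Ube2c, chr2:164769809-164769928, plus strand: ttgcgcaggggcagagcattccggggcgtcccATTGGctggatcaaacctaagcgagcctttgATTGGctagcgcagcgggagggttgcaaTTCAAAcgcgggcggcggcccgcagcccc
Top2a, chr11:99024190-99024309, minus strand: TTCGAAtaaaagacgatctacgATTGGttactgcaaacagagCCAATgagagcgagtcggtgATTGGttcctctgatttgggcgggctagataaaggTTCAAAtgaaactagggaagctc
Mki67, chr7:135716380-135716499, minus strand: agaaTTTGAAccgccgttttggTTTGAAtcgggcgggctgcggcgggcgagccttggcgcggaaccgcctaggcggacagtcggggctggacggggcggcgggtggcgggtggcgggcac
Ccne1, chr7:38107491-38107610, minus strand: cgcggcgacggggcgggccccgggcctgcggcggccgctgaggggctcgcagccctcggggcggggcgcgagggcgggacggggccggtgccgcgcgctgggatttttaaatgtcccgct
Tyms, chr5:30073626-30073745, minus strand: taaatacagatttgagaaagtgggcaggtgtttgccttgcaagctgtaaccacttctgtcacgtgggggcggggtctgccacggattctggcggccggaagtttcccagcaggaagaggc
In Cdk1 the CHR word nearest the start ended 10 bases before it and the nearest CCAAT 44 bases before it. For Ube2c these distances were 24 and 53 bases, and for Top2a 18 and 54 bases. No word searched lay in the printed stretch of Ccne1 or Tyms, which says only that these letters are not in that window. Promoters were listed for 30 of the 36 genes, 32 in all because Mcm7 and Prc1 have 2 starts. Over 250 bases before the start, CCAAT was found in 26 of the 32 (81.2%, against 33.8% of all 32851 listed promoters) and a CHR word in 11 (34.4%, against 17.1%). The E2F words TTTCCCGC, TTTGGCGC and TTTCGCGC were found in 5 (15.6%, against 1.53%), those of Cdc6, Cdk1, Mcm5, Mcm6 and Mcm7. Words were counted each on its own, overlaps included, and a match is a description of letters, not of a bound site.

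**Figure D1:**
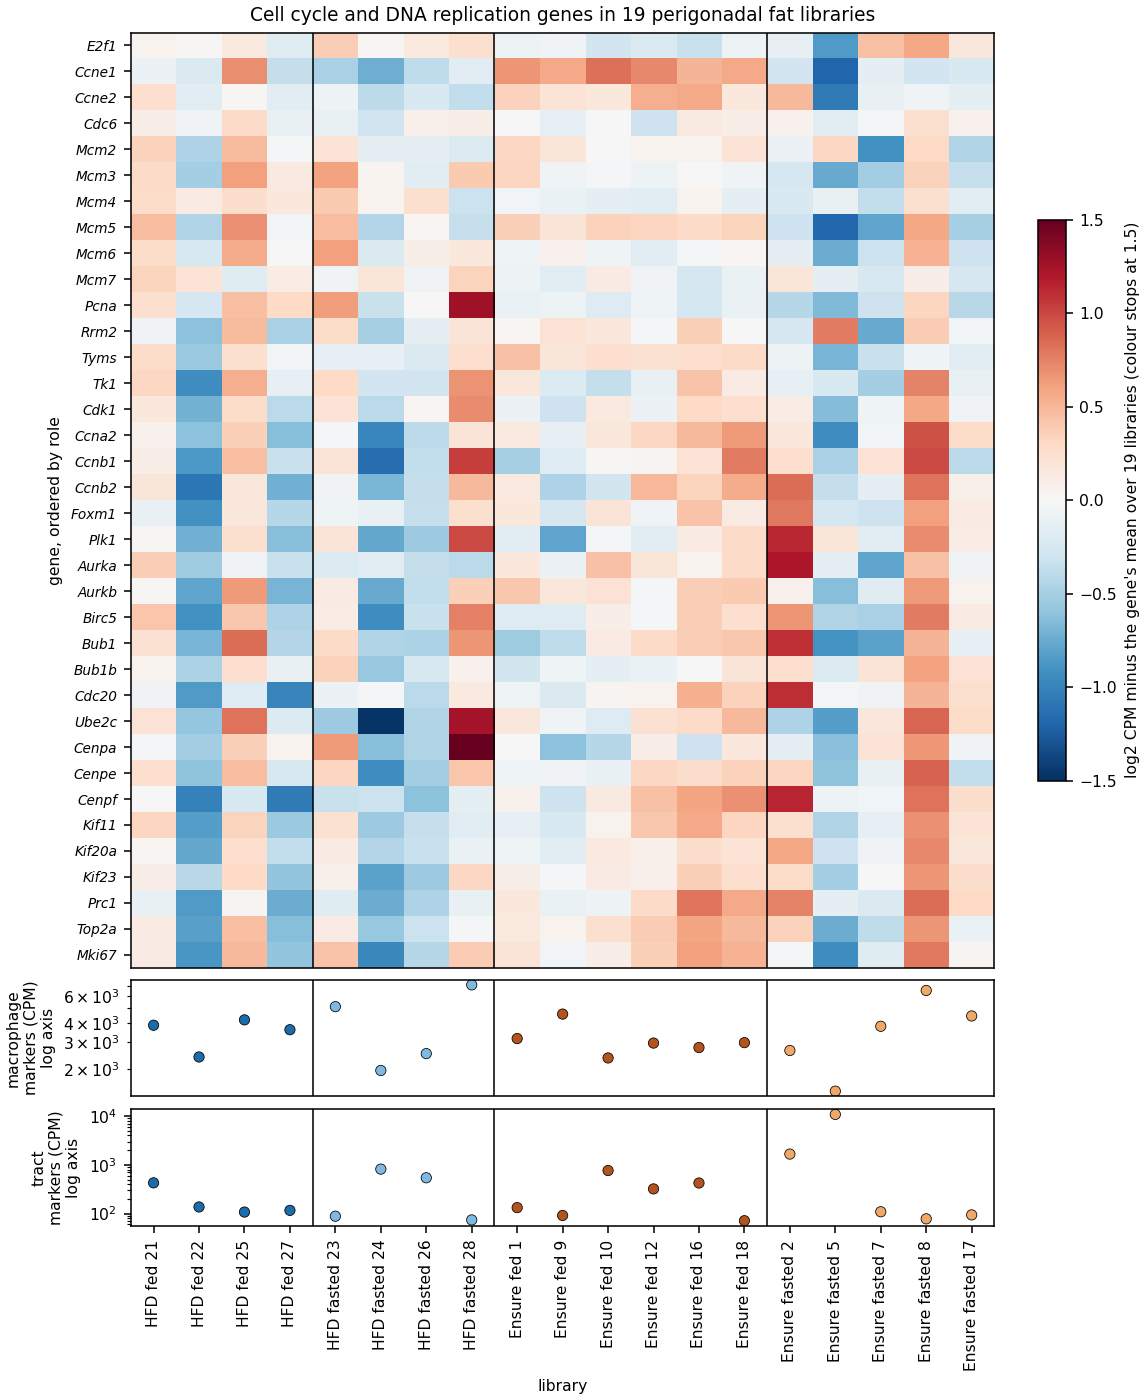
Level of each of the 36 genes (rows, ordered by role) in each of the 19 libraries (columns), as log2 CPM minus the gene's mean over the libraries, above the summed macrophage and tract markers of each library (CPM, log axes; point colours mark the groups). Most rows are red in Ensure fasted 8 and blue in HFD fed 22, HFD fasted 24 and Ensure fasted 5.

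The 36 genes varied widely between libraries of the same group. Their SD of log2 CPM within groups had a median of 0.39, against 0.28 for the 8533 genes in the same range of mean CPM. Ube2c, the ubiquitin-conjugating enzyme of the anaphase-promoting complex, varied most (SD 0.62, from 1.74 CPM in HFD fasted 24 to 11.4 CPM in HFD fasted 28). Cdc6, which loads the MCM helicase, varied least (SD 0.14, 2.42 to 3.65 CPM). The genes moved together from library to library. Ensure fasted 8 lay above its group's mean for 36 of 36 genes, by a median of 0.52 on the log2 scale, and was among the 3 highest of 19 libraries for 27 of them. HFD fed 25 was highest in its group for 27 genes and HFD fasted 28 for 22. At the other end, HFD fed 22 was lowest in its group for 27 genes, and HFD fasted 24 and Ensure fasted 5 for 25 each. The macrophage sum was 6523 CPM in Ensure fasted 8, 7098 CPM in HFD fasted 28 and 4187 CPM in HFD fed 25, each the highest of its group. It was 2391 CPM in HFD fed 22, 1951 CPM in HFD fasted 24 and 1428 CPM in Ensure fasted 5, each the lowest of its group. Ensure fed 9 went the other way, with the highest macrophage sum of its group (4568 CPM) and the lowest level in it for 17 of the 36 genes. Over all 16015 genes these 7 libraries deviated from their group means by medians of -0.02 to 0.01.

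Ensure fasted 2 followed another order: it was the highest of 19 libraries for 7 genes and among the 3 highest for 12. The 7 were Plk1, Aurka, Bub1, Cdc20, Cenpf, Ccnb2 and Foxm1, genes of mitosis that include the kinases of spindle assembly and its checkpoint. Aurka, a spindle pole kinase, stood there at 9.94 CPM and at 2.47 to 5.80 CPM in the other libraries, and Cdc20, the activator of the anaphase-promoting complex, at 9.17 against 2.14 to 6.15 CPM. This library also had the highest sum of spermatid markers, 601 CPM against a median of 7.71 CPM, and of meiotic markers, 149 against 64.1 CPM. Its sum of neutrophil markers was the highest too, 149 against a median of 40.0 CPM, and its counts in genes were the fewest (12.8 M). The part of germ cells, neutrophils or other cells in these values was not tested.

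Over the 19 libraries, 6 further genes with a mean of at least 1 CPM were most like the mean profile of the 36 (mean of standardised log2 CPM, 14528 genes considered). They were Tpx2, a spindle assembly factor (Pearson r 0.963, Spearman rho 0.956), Ccnf (0.928 and 0.951), C330027C09Rik (0.920 and 0.956), Racgap1 of the cleavage furrow (0.905 and 0.875), Kifc1, a spindle motor (0.904 and 0.933), and Dlgap5, a spindle protein (0.901 and 0.947). These correlations describe libraries that share groups, marker levels and scaling, and carry no p.

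The first comparison asks whether 24 h without food changed these genes in each model. With HFD, 0 of 36 passed the test in either direction, where 0.187% of all genes rose and 1.03% fell (edgeR quasi-likelihood test, Benjamini-Hochberg adjusted p under 0.05 over all genes). At an unadjusted p under 0.05 there were 0 higher and 1 lower. Their log2 fold changes ran from -0.50 (Ccne1) to 0.60 (Cenpa), with a median of -0.01 against 0.06 for all genes, and 17 of 36 were positive. The groups overlapped for 36 of 36 genes, where 2.24% of all genes had fasted libraries wholly above fed ones and 6.21% wholly below. DESeq2 and limma voom also called 0 in both directions. With Ensure, 2 of 36 fell and 0 rose, where 9.77% of all genes fell and 10.6% rose, so the share of members called was below that of all genes. In the same comparison 6 of 6 smooth muscle and 3 of 9 stromal progenitor markers were higher. The smooth muscle sum was 7428 CPM in Ensure fasted 5. It was 478, 587, 340 and 729 CPM in Ensure fasted 2, 7, 8 and 17, against 395 to 554 CPM in Ensure fed libraries. Lower were 2 of 10 adipocyte markers (Lep and Slc2a4) and 1 of 7 endothelial markers. Of 10 tract epithelium markers 1 was higher, of 9 meiotic markers 1 was higher and 1 lower, and of 6 mesothelial markers 1 was higher. Of 16 macrophage markers 0 passed. The part of those cells in the members' values was not tested. The members' median log2 fold change was -0.01 against 0.11 for all genes, and 17 of 36 were positive.

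**Figure D2:**
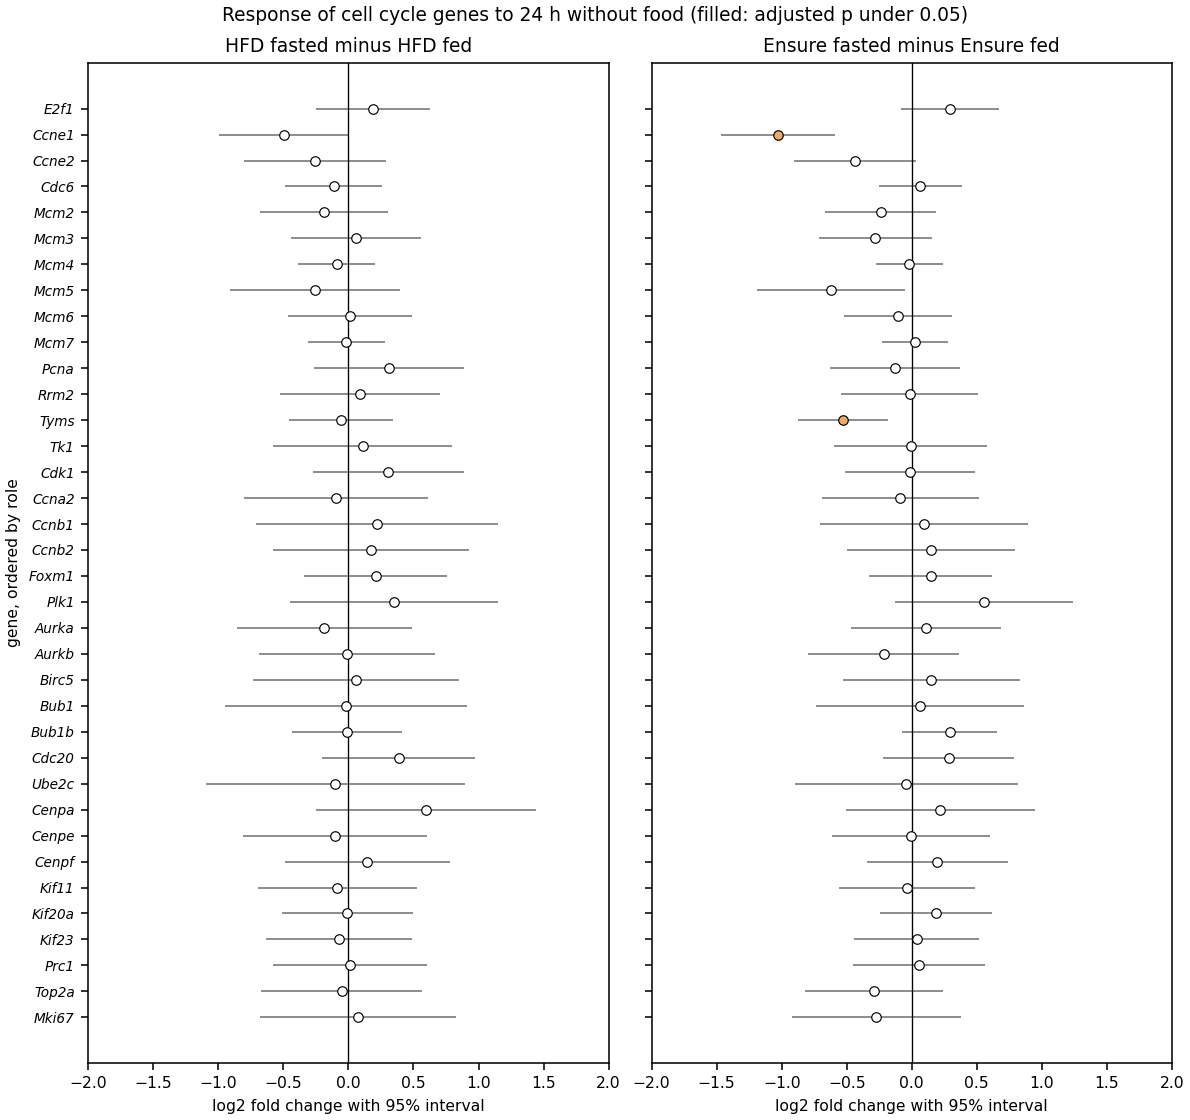
Log2 fold change of the 36 genes after 24 h without food (points) with 95% intervals (lines), for HFD on the left and Ensure on the right. Filled points passed an adjusted p under 0.05: none for HFD, and Ccne1 (-1.03) and Tyms (-0.53) for Ensure.

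Ccne1 encodes cyclin E1, which drives entry into S phase. In Ensure fed libraries it ran from 9.15 to 11.4 CPM with a median of 9.82. In Ensure fasted libraries 2, 5, 7, 8 and 17 it stood at 5.25, 2.80, 5.78, 5.27 and 5.48 CPM, so that every fasted library lay below every fed one. The means were 10.0 ± 0.832 (SD, n = 6) and 4.92 ± 1.20 CPM (SD, n = 5), a log2 fold change of -1.03 (SE 0.20, edgeR adjusted p = 0.00238). In HFD fed libraries 21, 22, 25 and 27 Ccne1 stood at 6.05, 5.52, 10.4 and 5.02 CPM, and in HFD fasted libraries 23, 24, 26 and 28 at 4.57, 3.87, 4.91 and 5.75 CPM. The HFD groups overlapped, with a log2 fold change of -0.50 (95% interval -0.99 to -0.002, edgeR adjusted p = 0.334). The difference between the 2 responses was -0.53 (95% interval -1.18 to 0.12, edgeR adjusted p = 0.736), so it was not shown that they differ. The Ensure call held with each of the 19 libraries left out in turn. Within lane 5 the single fed library (10.2 CPM) and within lane 6 all 4 fed libraries lay above each fasted library of that lane, and with lane as a term the log2 fold change was -0.99 at an adjusted p of 0.0506. It was -0.81 (edgeR adjusted p = 0.0448) without the 5 libraries richest in epididymis and spermatid markers. Without 8, which added those over 20 CPM of the tract epithelium marker Cdh16, it was -0.84 (0.0837).

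Tyms, thymidylate synthase, ran from 5.95 to 7.10 CPM in Ensure fed libraries (median 6.26). In Ensure fasted libraries 2, 5, 7, 8 and 17 it stood at 4.97, 3.25, 4.16, 5.01 and 4.67 CPM, again all below the fed ones. The log2 fold change was -0.53 (SE 0.16, edgeR adjusted p = 0.03). In HFD fed libraries 21, 22, 25 and 27 it was 6.34, 3.57, 6.19 and 5.11 CPM and in HFD fasted libraries 23, 24, 26 and 28 4.82, 4.82, 4.53 and 6.25 CPM, overlapping, at a log2 fold change of -0.06 (95% interval -0.45 to 0.34). The Ensure call was lost without Ensure fed 1 or Ensure fed 12, and when lane was added to the fit (-0.55 at an edgeR adjusted p of 0.173). It was also lost without the 5 libraries richest in epididymis and spermatid markers, Ensure fed 12 among them (-0.49 at an edgeR adjusted p of 0.167). Of all genes, 9.28% had Ensure fasted libraries wholly below the fed ones, against 2 of 36 members, and 5.68% wholly above, against 0 of 36.

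The other genes of S phase did not pass the test with Ensure. Mcm5, a subunit of the helicase, ran from 15.2 to 17.0 CPM in Ensure fed libraries, and stood at 10.7, 5.90, 7.71, 19.8 and 9.39 CPM in Ensure fasted libraries 2, 5, 7, 8 and 17. Ensure fasted 8 alone lay above the fed range, and the log2 fold change was -0.62 (SE 0.27, edgeR adjusted p = 0.103). Without Ensure fasted 8 it was -0.996 and called (edgeR adjusted p = 0.00564). Mcm2 ran from 13.1 to 16.1 CPM in Ensure fed libraries (median 14.1) and was 12.2, 16.1, 6.93, 15.9 and 9.49 CPM in the fasted ones, at a log2 fold change of -0.24 (SE 0.20). In HFD fed libraries 21, 22, 25 and 27 Mcm2 stood at 16.5, 9.46, 18.0 and 12.7 CPM and in HFD fasted libraries 23, 24, 26 and 28 at 15.0, 11.7, 11.8 and 11.3 CPM. Ccne2, the second cyclin E, had a log2 fold change of -0.44 with Ensure (95% interval -0.90 to 0.02). E2f1, the activator of S phase genes, was at 0.29 (95% interval -0.08 to 0.66) and passed as higher without Ensure fasted 5 (0.41, edgeR adjusted p = 0.015), where its level was 11.2 CPM against 18.6 to 30.2 CPM in the other 4.

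Genes of G2 and mitosis showed no shift with fasting beyond the spread between libraries. Mki67, the proliferation antigen Ki-67 that coats mitotic chromosomes, stood at 45.1, 22.6, 58.3 and 27.7 CPM in HFD fed libraries 21, 22, 25 and 27 and at 55.8, 21.3, 30.8 and 54.3 CPM in HFD fasted libraries 23, 24, 26 and 28. It ran from 40.5 to 63.8 CPM in Ensure fed libraries (median 50.4) and stood at 40.6, 21.7, 36.7, 72.1 and 42.6 CPM in the Ensure fasted ones, so high and low libraries occurred in both states. The log2 fold change was 0.08 with HFD (95% interval -0.67 to 0.82) and -0.27 with Ensure (95% interval -0.91 to 0.37), which leaves room for changes of either sign. Top2a, the topoisomerase that untangles chromosomes, stood at 26.1, 13.6, 32.7 and 15.3 CPM in HFD fed and 26.1, 16.1, 19.2 and 23.4 CPM in HFD fasted libraries. With Ensure it ran from 24.8 to 36.1 CPM fed (median 29.7) and stood at 30.3, 14.3, 18.3, 37.9 and 22.3 CPM fasted, at a log2 fold change of -0.29 (SE 0.25). Ccna2, cyclin A2 of S and G2 phase, stood at 9.12, 5.73, 11.2 and 5.63 CPM in HFD fed and at 8.57, 4.43, 6.66 and 9.97 CPM in HFD fasted libraries. It ran from 8.06 to 13.6 CPM in Ensure fed libraries (median 10.3) and stood at 9.73, 4.60, 8.49, 16.9 and 10.6 CPM in Ensure fasted ones, and its log2 fold changes were -0.10 (SE 0.33) and -0.09 (SE 0.28). For these 3 genes the groups overlapped in both models.

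**Figure D3:**
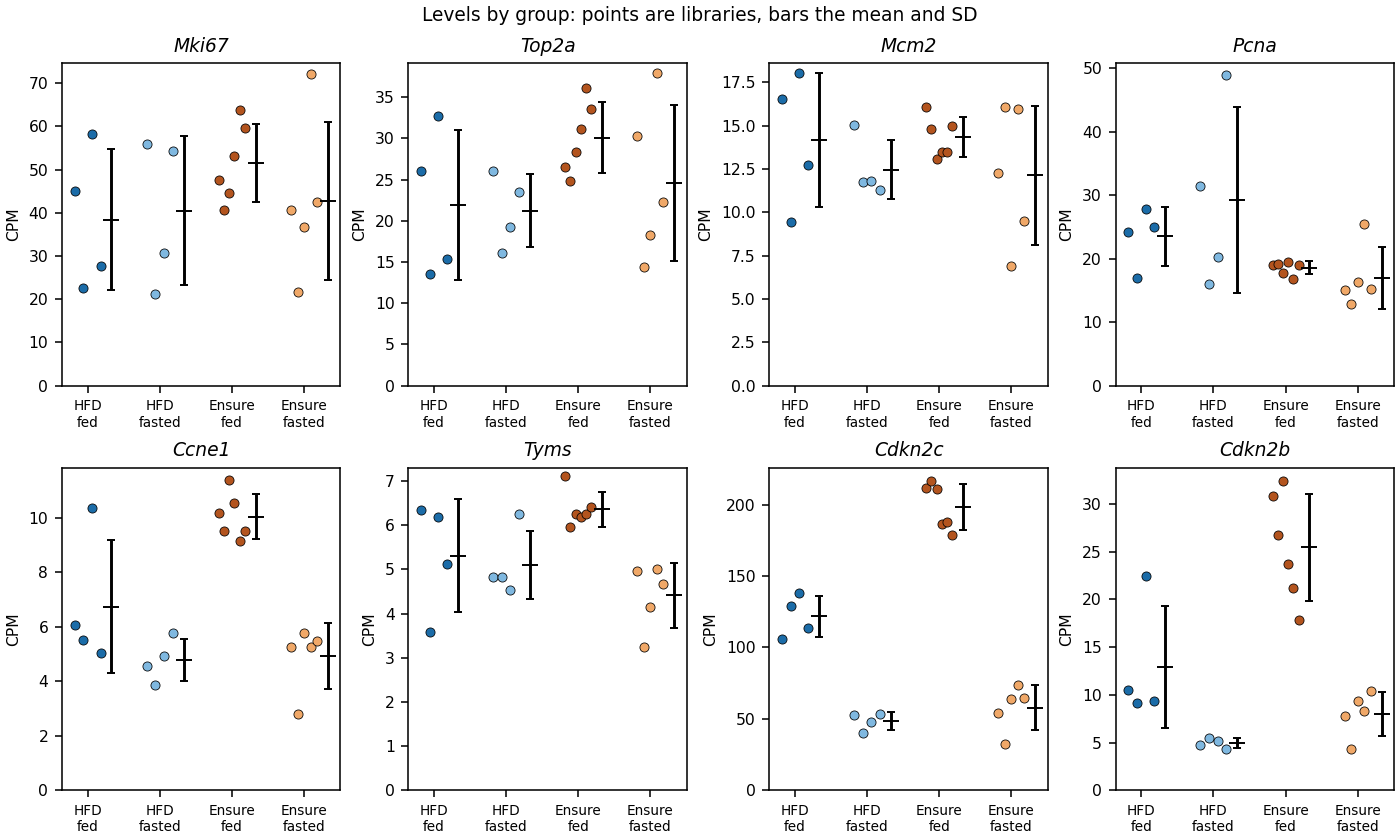
CPM of 6 of the 36 genes and of the inhibitors Cdkn2c and Cdkn2b by group; points are libraries and the bars beside them the mean and SD (n = 4, 4, 6 and 5), on linear axes from 0. Ccne1, Cdkn2c and Cdkn2b are lower in every Ensure fasted library than in every Ensure fed one, and so is Tyms, whereas the groups overlap for Mki67 and Top2a.

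For the difference between the 2 fasting responses, 0 of 36 passed in either direction, as did 0 of all 16015 genes (0.00%). At an unadjusted p under 0.05 the members gave 0 and all genes gave 767 higher and 467 lower. DESeq2 and limma voom also called 0 members. The members' differences ran from -0.53 (Ccne1) to 0.30 (Bub1b), with a median of -0.04 against 0.04 for all genes.

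The second comparison sets the 2 models against each other. Among fed libraries 0 of 36 passed (2.09% of all genes were higher with Ensure and 2.17% lower). The members' median log2 difference was 0.18 against -0.04 for all genes, and 25 of 36 were positive. Cenpf, a kinetochore protein, gave the largest at 0.80 (SE 0.28, edgeR adjusted p = 0.118), followed by Prc1, which bundles the spindle midzone, at 0.68 (SE 0.26), Cdc20 at 0.60 (SE 0.26) and Ccne1 at 0.57 (SE 0.22). For each of these 4 the unadjusted p was under 0.05. Mcm4, a helicase subunit, was the one member whose groups did not overlap (7.37% of all genes were lower in this way, and 5.89% higher, against 0 members): it stood at 22.5, 20.3, 22.4 and 20.7 CPM in HFD fed libraries and at 16.5 to 19.3 CPM in Ensure fed ones, a log2 difference of -0.30 (SE 0.13, edgeR adjusted p = 0.203). Limma voom with sample quality weights called 15 of 36 higher with Ensure, Mki67 (0.75), Top2a (0.79) and Cenpf (1.13) among them, where it called 15.1% of all genes. DESeq2 called Ccne1 (0.60) and Cenpf (0.82), both near the threshold (DESeq2 Wald test, adjusted p = 0.0487 and 0.0472). The share of all genes it called is not given here, so these calls are not read as a result about the members. All HFD libraries were in lane 7 and 1 Ensure fed library was, so diet and lane can hardly be told apart. With lane as a term in the edgeR fit 0 members passed, as without it. DESeq2 and limma voom were not run with lane.

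Among fasted libraries 0 of 36 passed as well (1.63% of all genes were higher with Ensure and 1.19% lower), with a median log2 difference of 0.11 against 0.02 and 24 of 36 positive. Cenpf lay wholly above the HFD libraries (2.51% of all genes did), and 0 members lay wholly below (1.48%). It stood at 18.9, 8.15, 8.31, 15.1 and 10.2 CPM in Ensure fasted libraries 2, 5, 7, 8 and 17 and at 6.80, 6.82, 5.60 and 7.72 CPM in HFD fasted ones, a log2 difference of 0.85 (SE 0.29, edgeR adjusted p = 0.111). Pcna, the replication clamp, gave the lowest value at -0.78 (SE 0.26, edgeR adjusted p = 0.102). It stood at 31.4, 16.1, 20.3 and 48.9 CPM in HFD fasted libraries 23, 24, 26 and 28, and at 15.0, 12.8, 16.3, 25.4 and 15.3 CPM in Ensure fasted ones. It was 24.2, 17.0, 27.8 and 25.0 CPM in HFD fed libraries and 16.9 to 19.5 CPM in Ensure fed ones (median 18.99). HFD fasted 28, with the highest macrophage sum, held its highest level. Pcna passed as lower without Ensure fasted 8 (-0.97, edgeR adjusted p = 0.0372), without HFD fasted 24 (-0.98, 0.0299) and with the macrophage sum as a term (-0.62, 0.01). The lipid-associated macrophage markers differed between the models: 6 of 12 were lower with Ensure in each state, and among fasted libraries their sums were 1439 to 21746 CPM with HFD and 559 to 2961 CPM with Ensure. In both states 5 of 6 mast cell markers were lower with Ensure, and neutrophil markers were higher (2 of 6 fed and 3 of 6 fasted). Of 9 stromal progenitor markers, 2 were higher and 3 lower among fed libraries, and 3 higher and 2 lower among fasted ones. The part of these cells in the differences was not tested. The fed and fasted diet comparisons use different libraries, but each shares its libraries with the fasting comparisons. Lane 7 held all HFD fasted libraries and 0 Ensure fasted ones, so diet and lane can hardly be told apart here either.

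Within groups, 18 of the 36 genes were higher where the macrophage markers were higher. The test asks for the change per doubling of the summed CPM of the 16 markers with the group as a term, and 18 of 36 genes passed as higher and 0 as lower, where 17.9% of all genes were higher and 17.1% lower. The coefficient was positive for 35 of 36 genes, with a median of 0.39 against 0.02 for all genes, on the log2 scale. The sums ranged over 2391 to 4187 CPM in HFD fed, 1951 to 7098 in HFD fasted, 2356 to 4568 in Ensure fed and 1428 to 6523 CPM in Ensure fasted libraries, and 0 of the 16 markers passed the test in any of the 5 group comparisons.

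**Figure D4:**
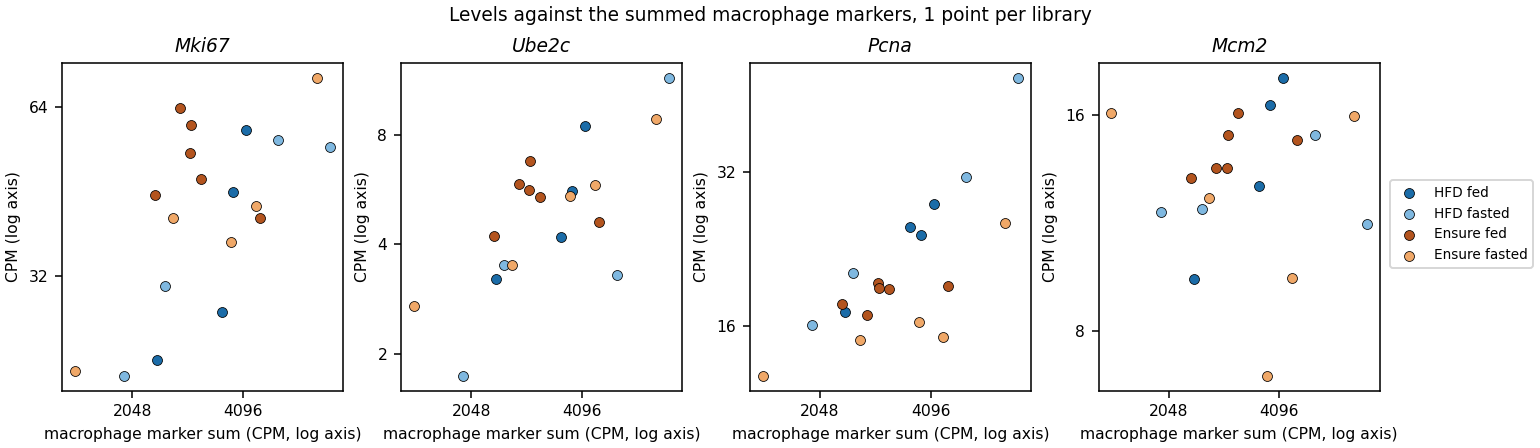
CPM of Mki67, Ube2c, Pcna and Mcm2 against the summed macrophage markers in the 19 libraries (log axes, colours mark groups). With the group as a term, the slopes per doubling are 0.69, 0.92, 0.56 and 0.04. Ensure fed 9 has the highest sum of its group (4568 CPM) and its lowest Mki67 (40.5 CPM).

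The genes that passed included 12 of the 22 of G2 and mitosis and 6 of the 14 of S phase, a difference that was not tested. Ube2c had the largest coefficient, 0.92 (SE 0.17, edgeR adjusted p = 0.000661), followed by Cenpa, the histone of the centromere, at 0.78 (SE 0.15, 0.000817), and Ccnb1, cyclin B1 of mitosis, at 0.70 (SE 0.20, 0.0122). Mki67 stood at 0.69 (SE 0.14, 0.00128), Ccna2 at 0.61, the kinetochore motor Cenpe at 0.59, Birc5 (survivin) at 0.55 and its partner kinase Aurkb at 0.54. Of the replication genes, Pcna had the smallest p of all 36 (0.56, SE 0.08, edgeR adjusted p = 9.6e-05), and Mcm3, Mcm5, Mcm6 and Tk1 passed at 0.40 to 0.46. The other genes that passed were E2f1 (0.37), Cdk1 (0.44), Bub1b (0.35), Kif23 (0.48) and Top2a (0.41). The 18 that did not pass included the helicase subunits Mcm2 (0.04, 95% interval -0.24 to 0.31), Mcm4 (0.03) and Mcm7 (0.01), the nucleotide reductase subunit Rrm2 (0.06), Aurka (-0.03), Cdc20 (0.10) and Cenpf (0.15). Rrm2 was highest of all libraries in Ensure fasted 5, at 10.9 CPM against 3.79 to 8.93 CPM in the others, and passed without it (0.41, edgeR adjusted p = 0.0429). The remaining 11 were Ccne1 (0.30), Ccne2 (0.16), Cdc6 (0.13), Tyms (0.24), Ccnb2 (0.44), Foxm1 (0.22), Plk1 (0.37), Bub1 (0.44), Kif11 (0.37), Kif20a (0.30) and Prc1 (0.30).

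**Figure D5:**
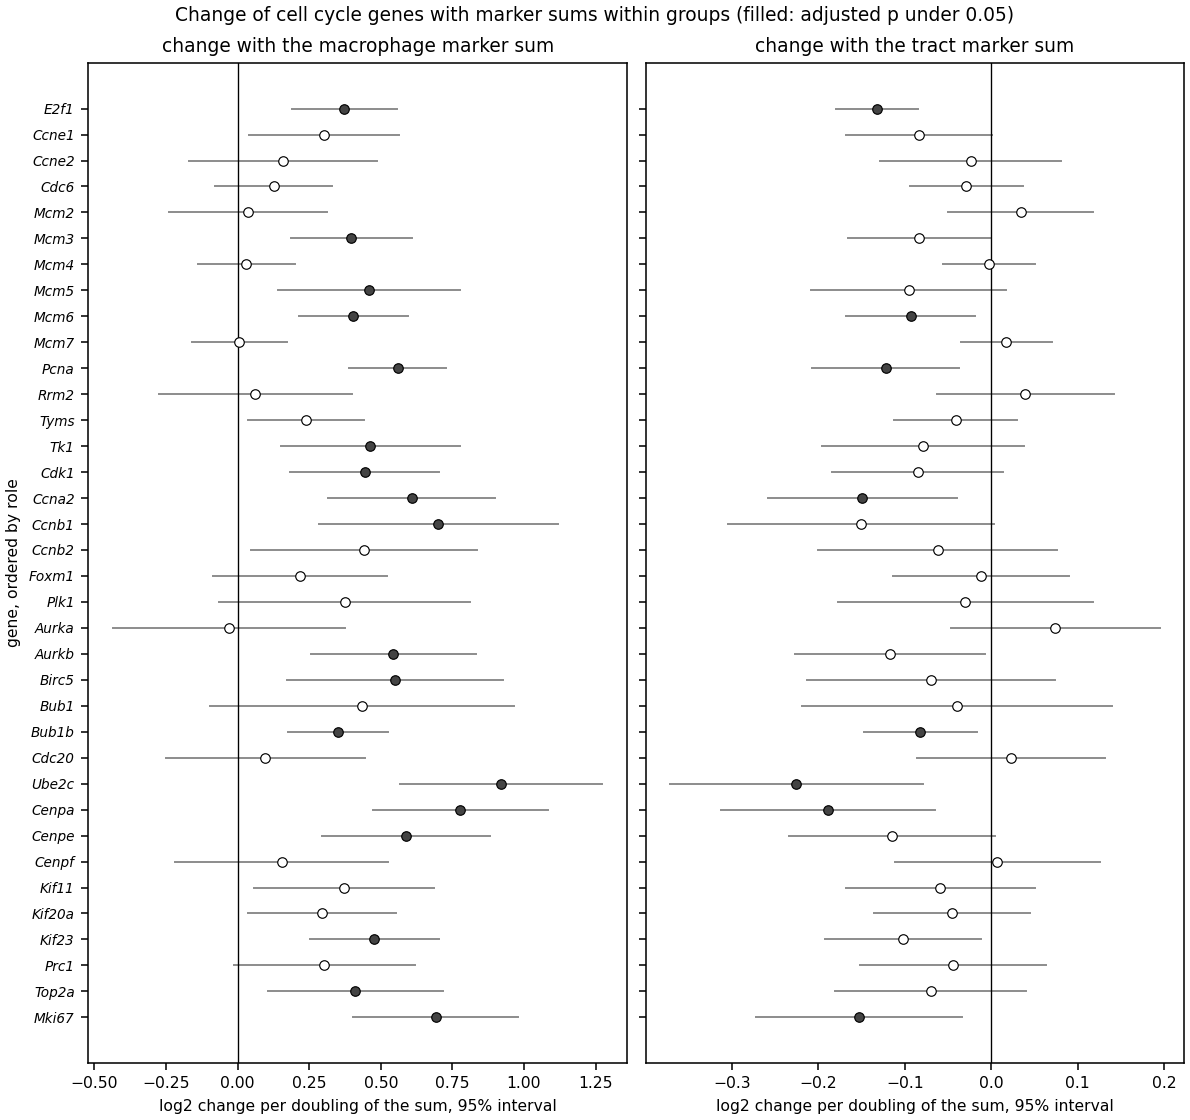
Coefficient of each of the 36 genes per doubling of the macrophage sum (left) and of the tract sum (right) within groups, with 95% intervals; filled points passed an adjusted p under 0.05. On the left 18 genes are filled, all above 0, and on the right 8, all below 0; the 2 axes differ in scale.

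The count rested in part on a few libraries. It ranged from 11 to 20 with 1 library left out, 11 being without Ensure fasted 8 (12.2% of all genes higher), and was 7 without Ensure fasted 8 and HFD fasted 28 (9.63%). Without the 5 libraries richest in epididymis and spermatid markers it was 3 (8.33%), and without 8, which left 3, 2, 3 and 3 libraries, it was 0 (0.577%). Lipid-associated macrophage markers in place of the macrophage list gave 18 (19.7%). The macrophage sum moved with other cells: 11 of 12 lipid-associated macrophage and 5 of 9 stromal progenitor markers were higher with it, 1 of 10 T cell and 0 of 7 endothelial markers, and 9 of 10 tract epithelium and 6 of 6 smooth muscle markers were lower. Which cells held the transcripts was not tested.

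With the tract sum, 0 of 36 genes were higher and 8 lower, where 20.4% of all genes were higher and 17.5% lower. The 8 were E2f1 (-0.13 per doubling, SE 0.02, edgeR adjusted p = 0.00031), Mcm6 (-0.09), Pcna (-0.12), Ccna2 (-0.15), Bub1b (-0.08), Ube2c (-0.23), Cenpa (-0.19) and Mki67 (-0.15). Each of them was also among the 18 that were higher with the macrophage sum. In the same fit 13 of 16 macrophage markers were lower, so the 2 sums ran against each other. With both sums in 1 fit, 7 members passed as higher with the macrophage sum (5.01% of all genes), and 0 passed with the tract sum, where 7 of the 8 coefficients turned positive, E2f1 excepted. The count of 8 was 1 without Ensure fasted 5 or without Ensure fasted 8, and 3 to 5 without HFD fasted 23, 24, 26 or 28, Ensure fed 10, 16 or 18, or Ensure fasted 2. The share of all genes called in these refits is not given here, so a general loss of calls cannot be told apart.

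Genes around the 36 were taken from 5 lists that hold 145 further genes of the pathway, all of which were tested. With HFD fasting 1 rose and 3 fell (0.69% and 2.07%, against 0.187% and 1.03% of all genes). With Ensure fasting 7 rose and 11 fell (4.83% and 7.59%, against 10.6% and 9.77% of all genes), both shares below those of all genes. Cdkn2c, the p18 inhibitor of the cyclin D kinases, stood at 106, 129, 138 and 114 CPM in HFD fed libraries and 53.0, 40.0, 47.7 and 53.6 CPM in HFD fasted ones. It ran from 179 to 217 CPM in Ensure fed libraries (median 199) and was 54.2, 32.4, 64.1, 73.6 and 64.9 CPM in Ensure fasted ones, so that fasted libraries lay below fed ones in both models. The log2 fold changes were -1.33 (SE 0.18, edgeR adjusted p = 0.00364) with HFD and -1.78 (SE 0.16, edgeR adjusted p = 7.2e-06) with Ensure. Cdkn2b, the related p15 inhibitor, fell by 1.38 on the log2 scale with HFD (SE 0.29, edgeR adjusted p = 0.0291) and by 1.66 with Ensure (SE 0.26, edgeR adjusted p = 0.000366). With HFD this call was lost in 7 of the 19 omissions of 1 library, with lane as a term (adjusted p = 0.0561), without HFD fasted 28 and Ensure fasted 8 (0.0976) and with only the 2 groups compared (0.279). Cdkn1a, the p21 inhibitor, fell by 1.06 with Ensure (SE 0.28, edgeR adjusted p = 0.0141), where Cdkn1b, the p27 inhibitor, rose by 0.46 (SE 0.12, edgeR adjusted p = 0.0128). The Cdkn1a call was lost when lane was added to the fit (edgeR adjusted p = 0.127). It was also lost without the 5 libraries richest in epididymis and spermatid markers (0.128) or the 8 that include those rich in Cdh16 (0.0929). The Cdkn1b call was lost without the 8. Of the 20 inhibitor and quiescence genes, 1 rose and 2 fell with HFD, and 3 rose and 4 fell with Ensure. The one that rose with HFD was Plk3, a stress kinase, at 1.11 (SE 0.21, edgeR adjusted p = 0.0209). The call was lost without HFD fasted 28, which stood at 26.1 CPM against 12.8 to 16.5 CPM in the rest of its group, and without HFD fed 22, 25 or 27.

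Among 20 G1 cyclins, kinases, E2F and pocket proteins, 1 fell with HFD and 4 with Ensure, and 0 rose. E2f6, a repressor of the E2F family, fell by 0.50 with HFD (SE 0.11, edgeR adjusted p = 0.0395) and by 0.56 with Ensure (SE 0.10, edgeR adjusted p = 0.00106). The HFD call held in 6 of 19 omissions of 1 library and was lost when lane was added to the fit. With Ensure, the activators E2f2 and E2f3 fell by 1.10 and 0.49 and Ccnd2, cyclin D2, by 0.79 (SE 0.22, 0.13 and 0.19). E2f2 stood at 8.83 to 12.8 CPM in Ensure fed libraries and at 5.32, 2.90, 5.66, 5.73 and 5.07 CPM in Ensure fasted ones, without overlap. Of 41 further replication genes, 0 passed with HFD, and 1 rose and 2 fell with Ensure: Orc2 of the origin recognition complex fell by 0.52 (SE 0.09), Gins4 of the helicase by 0.30 (SE 0.07), and Mcm8 rose by 0.55 (SE 0.17, lost in 6 of 19 omissions of 1 library). Of 48 further mitosis genes, 0 passed with HFD, and 2 rose and 1 fell with Ensure. Cks1b, a small partner of the cyclin-dependent kinases, fell by 0.79 (SE 0.15), Pttg1 (securin) rose by 0.32 (SE 0.10, lost in 8 of 19 omissions), and Wee1, the kinase that holds Cdk1 inactive, rose by 1.16 (SE 0.23). Wee1 stood at 33.4 CPM in Ensure fasted 5 and at 11.2 to 18.3 CPM in the other 4, against 6.00 to 11.3 CPM in fed libraries. The Ensure calls of E2f3, Ccnd2, Gins4, Mcm8, Cks1b, Pttg1 and Wee1 were lost with lane as a term. They were also lost without the 5 libraries richest in epididymis and spermatid markers, while those of E2f2, E2f6 and Orc2 held under both. Of 16 recombination and repair genes 1 passed with Ensure, Fanca at 2.09 (SE 0.72, edgeR adjusted p = 0.0473), and that value was set by Ensure fasted 5: it stood there at 60.9 CPM and at 1.87 to 6.51 CPM in the other 4, and without that library the log2 fold change was -0.08. In the difference of the 2 responses 0 genes of the 5 lists passed, as for all genes.

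Between the models, Cdkn1c, the p57 inhibitor, was lower with Ensure among fed (-1.32, SE 0.29, edgeR adjusted p = 0.0166) and among fasted libraries (-1.28, SE 0.30, edgeR adjusted p = 0.0302). Its level was 18.8 to 40.1 CPM in HFD fed and 10.5 to 14.1 CPM in Ensure fed libraries. In HFD fasted 28 it reached 100.4 CPM, and without that library the fasted call was lost. Cdkn2c and Cdkn2b were higher with Ensure among fed libraries (0.71, SE 0.17, and 0.98, SE 0.27), and the pocket protein Rbl2 was lower (-0.33, SE 0.09). Among fasted libraries Plk3 (-1.21, SE 0.20) and Gadd45b (-1.55, SE 0.40), a growth arrest gene, were lower with Ensure. Each of these 7 calls was lost with lane as a term. Lane 7 held all HFD libraries, 1 Ensure fed library and 0 Ensure fasted ones. Diet and lane can therefore hardly be told apart, and the loss does not decide between them. With 1 library left out, the call for Gadd45b was lost in 16 of 19 omissions, Rbl2 in 17, Cdkn2b in 10, Cdkn2c in 3 (HFD fed 21, 22 and 27), and Cdkn1c among fed libraries in 2 (HFD fed 22 and 27).

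With the macrophage sum, 10 of 20 inhibitor and quiescence genes were also higher and 0 lower, and so were 18 of 48 further mitosis genes (2 lower) and 9 of 41 further replication genes (0 lower). Over the 145 genes 44 were higher and 6 lower (30.3% and 4.14%, against 17.9% and 17.1% of all genes), and the 9 of 41 replication genes lie near the share of all genes. Examples were Incenp of the passenger complex (0.62, SE 0.08, edgeR adjusted p = 5.6e-05), the replication licensing factor Cdt1 (0.72, SE 0.14) and Gadd45b (0.84, SE 0.14). Ccnd1, cyclin D1, went the other way, at -0.56 with the macrophage sum (SE 0.14) and 0.20 with the tract sum (SE 0.03), and stood at 183.7 CPM in Ensure fasted 5, the library with the highest tract sum, against 48.2 to 108 CPM elsewhere.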

How the data were processed

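Poly-A RNA was made into TruSeq libraries for a HiSeq2000, per the labels' protocols. The submitters' processing notes list TopHat2 2.1, HTSeq 0.6.1, bcl2fastq 1.8.4 and mm9. Neither settings nor strand is stated there, so antisense and near-identical genes are uncertain. The authors deposited raw counts per gene for each of the 19 libraries. The 5 HTSeq summary lines were left out (reads in no gene made up 13.0 to 17.3% of each file's total).

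Groups and lanes follow the labels. Counts were scaled by TMM, filtered with a minimum count of 10 and fitted in 1 model of 4 groups with edgeR 4.0.16 (quasi-likelihood test, R 4.3.3, limma 3.58.1), with p-values adjusted by Benjamini-Hochberg over 16015 genes and a threshold of 0.05. Marker sums entered as log2(CPM + 1) beside the group. SE is the fold change over the root of F, and intervals are 95%. SDs use log2(CPM + 0.5). The models were tested on simulated data. DESeq2 1.42.0, limma voom, other scalings, filters, terms and omissions were alternatives.

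All 36 members are accounted for. Members called in a group comparison and Mki67, Top2a, Ccna2, Mcm2, Pcna and Ccne1 are given by library, with Ensure fed libraries as a range and median. Members called with a marker sum are given by coefficient. Up to 4 called genes per further list and group comparison are named by smallest p, and examples for the marker sums. The 6 genes most like the mean profile are also named. The members, lists and tests were chosen with earlier results of these data known. Genes named outside that rule were chosen after their values were seen.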

Additional observations from a re-analysis of the deposited data

Results flagged for a closer look

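Among 144 tests of a single library against its group (36 genes in 4 groups), 5 values stood apart from the rest of their group by more than the 95% limit of Dixon's test, where chance gives about 1 in 20. Ccne1 stood at 2.80 CPM in Ensure fasted 5 and at 5.25 to 5.78 CPM in the other 4 libraries, a gap of 0.821 of the group's range. Ensure fasted 5 also had the highest tract sum and the lowest macrophage sum. Mcm2 stood at 15.0 CPM in HFD fasted 23, against 11.3 to 11.8 CPM (0.854). Mcm3 stood at 23.6 CPM in Ensure fed 1, against 17.9 to 19.02 CPM (0.807); this was the one Ensure fed library in lane 5. In Ensure fasted 8, with the highest macrophage sum of its group, Pcna stood at 25.4 CPM against 12.8 to 16.3 CPM (0.721), and Tk1, thymidine kinase, at 8.04 against 3.37 to 4.46 CPM (0.766). Causes were not tested.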

How the results depend on the processing

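No paired analysis was possible because the groups share no replicate numbers. Counts of members called with fasting in HFD, and for the difference of responses, were 0 under every alternative run. Removing libraries over 100 CPM in the epididymis, spermatid and meiotic lists left 1, 2, 3 and 2 libraries, since Sycp3 was read throughout. Removal of 5 or 8 libraries by narrower rules, removal of the 2 richest in macrophage markers (HFD fasted 28, Ensure fasted 8), both sums together and the lipid-associated sum were chosen after seeing the data. The share of all genes called also varied between alternatives. The counts below alone therefore do not show a change particular to the members.

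With Ensure fasting, the count higher (0) was 1 with the tract sum as a term, without the 5 and with voom, and 0 to 1 with 1 library left out. The count lower (2) was 0 with lane, 0 without the 11 under both planned rules, 1 without the 5, 0 without the 8, 4 without the 2 and 5 with voom, and 1 to 3 with 1 library left out (1 without Ensure fed 1 or 12). Between fed models, the count higher (0) was 1 with the macrophage term, 2 with DESeq2 and 15 with voom, and 0 to 1 with 1 left out; the count lower (0) was 1 with only those groups and 2 with voom. Between fasted models, the count higher (0) was 4 with voom; the count lower (0) was 1 with the macrophage term, without the 8, without the 2, with DESeq2 and with voom, and 0 to 1 with 1 left out.

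With the macrophage sum, the count of 18 was 0 without the 11 and without the 8, 3 without the 5, 7 without the 2, 7 with both sums, and 11 to 20 with 1 left out. With the tract sum, the count higher was 0 to 1 with 1 left out, and the count lower (8) was 5 with DESeq2 size factors, 2 with library size alone, 4 with a stricter filter, 4 with lane, 0 without the 11, the 5 or the 8, 1 without the 2, 0 with both sums, and 1 to 9 with 1 left out.

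Fanca after Ensure fasting turned from 2.09 to -0.028 without the 11, -0.30 without the 5, -0.17 without the 8 and -0.28 with voom, and ranged from -0.078 (without Ensure fasted 5) to 2.37 with 1 library left out. With both sums the tract coefficients turned to 0.045 (Mcm6), 0.091 (Pcna), 0.025 (Ccna2), 0.029 (Bub1b), 0.054 (Ube2c), 0.045 (Cenpa) and 0.088 (Mki67). Of the other values of single genes, 8614 kept their side of the threshold, 479 lost a call and 55 gained one. Among the 8614, direction was compared only for called values, and values called in neither fit may have changed sign. Causes were not tested.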
